A study of Mus musculus with 6 samples.

Results

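The genes described here encode the subunits of the mitochondrial respiratory chain and of the ATP synthase. They were taken from a table of 19078 gene rows by symbol: those starting with *Nduf* and a letter from a, b, c, s or v, the 4 *Sdh* subunit genes, those starting with *Uqcr*, with *Cox* and a digit from 4 to 8 or with *Atp5*, and *Cyc1*. The rule found 89 rows. The RNA came from immortalized mouse fibroblasts (MF), which the study's methods describe as embryonic fibroblasts with a conditional *Gpx4* allele, Cre-ERt2 and a CRISPR activation system, in both groups alike. The 3 *Ms4a15* OE libraries came from a pool of cells infected with a lentivirus carrying a guide that activates *Ms4a15*, selected with G418. The 3 control libraries came from cells infected with empty lentivirus, whose genotype the sample labels give as wild type. Both were grown in DMEM with serum. Nothing in the labels says whether the 3 libraries of a group came from separate cultures.

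Each value below is the mean over all 6 libraries of the read counts after division by a size factor, as the authors' table gives it. That mean covers *Ms4a15* OE and control together. It therefore gives the level of each gene in these fibroblasts and not a change between the groups, and it has no SD. Changes of these genes by group, and how they lie along the chromosomes, are not given here. *Ms4a15* itself had a mean of 638 normalized counts, which does not check the labels. To compare genes of different length, the mean was divided by the length of all annotated exons of the gene. This quantity, in normalized counts per kilobase, is the level of a gene below. The exons are those of GENCODE, whereas the study's methods give UCSC known genes for the counting. A length can therefore include exons in which no reads were counted, and how far this moved the levels was not tested. A gene's percentile is the share of 11758 genes with a mean of at least 10 that had a lower level. Counting error was small for nearly all of them, at 0.138% of the mean for *Atp5b*, 1.67% for *Ndufv3* and 2.47% for *Uqcr11*, and it covers counting only.

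The respiratory chain passes electrons from NADH (complex I) and succinate (complex II) through complex III and cytochrome c to oxygen at complex IV. Complexes I, III and IV pump protons across the inner mitochondrial membrane, and the ATP synthase (complex V) uses the returning protons to make ATP. Every complex but complex II has a part that is encoded in mitochondrial DNA. All other subunits, including every gene in the list, are encoded in the nucleus. Several subunits of complex IV come in a common form and in forms known from heart, skeletal muscle, testis or hypoxic cells. Fibroblasts in culture take much of their ATP from glycolysis but keep a complete respiratory chain.

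Of the 89 rows, 75 were subunits of a complex in their common form, 6 were isoforms known from particular tissues or conditions, 7 were no subunit of a complex, and *Uqcr* was an older symbol of *Uqcr11*. The level could be given for 88 of them. The mean reached 10 in 85 rows and stayed under 10 in *Cox7a1*, *Ndufa4l2*, *Cox4i2* and *Cox6b2*. Of the 75 subunits, 73 had a mean of at least 1000, the exceptions being *Ndufv3* with 599 and *Uqcr11* with 273. In level, 77 of 88 rows (87.5%) were above the median of all genes, which was 376 per kilobase. The 88 rows are a fixed list and no random sample, so no interval is given for this share. They include the rows with a mean under 10, whereas the genes they were compared with all had at least 10. Of the 75 subunits, 48 (64%) lay in the top 10% of all genes and 73 above the median. Together the 89 rows took 1.09% of all normalized counts. The subunit genes were short, with a median exon length of 1001 bases beside 3323.5 bases for all genes.

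**Figure D1:**
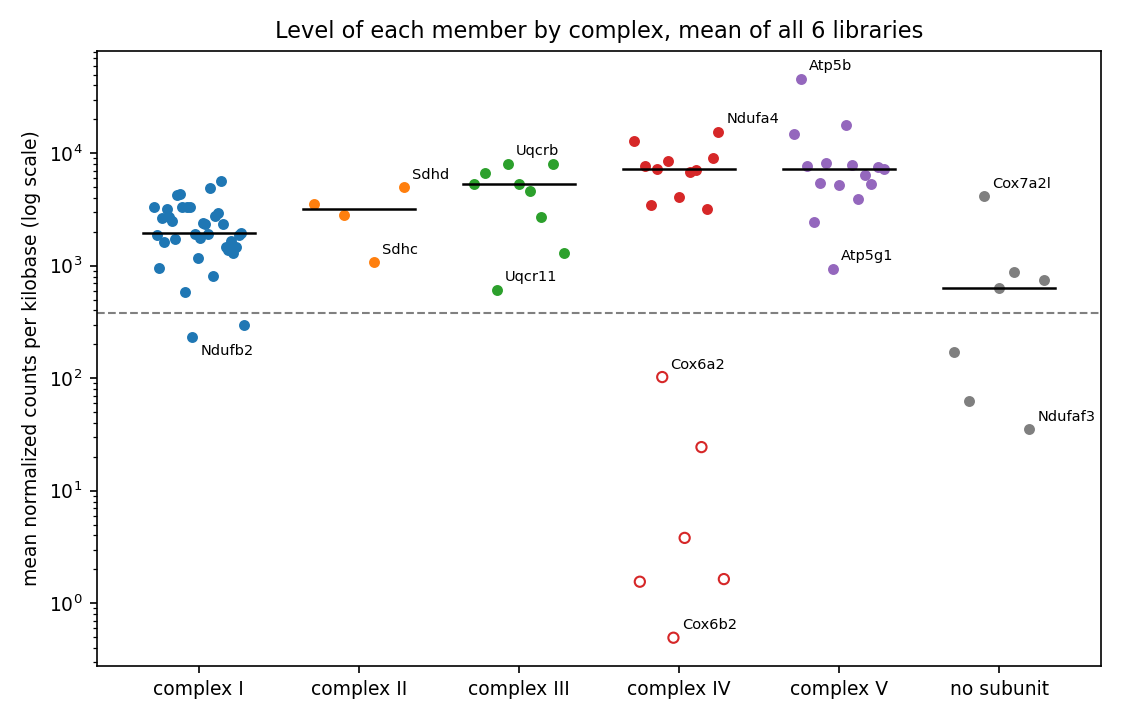
Level of 88 rows by complex, in normalized counts per kilobase on a log scale; points are genes, open circles the isoforms known from particular tissues or conditions, black bars the median without them, and the dashed line the median of all genes (376 per kilobase). The medians without them ranged from 1935 in complex I to 7258 in complex IV, *Atp5b* stood highest at 45971, and all 6 open circles lay below the dashed line.

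The level was lowest in complex I. Grouped by symbol, the median level was 1899 for *Nduf* rows, 3169 for *Sdh* rows, 5304 for *Uqcr* and *Cyc1* rows, 4105 for *Cox* rows and 6384 for *Atp5* rows. Grouped by the complex the protein belongs to and without isoforms and non-subunits, the medians were 1935 for complex I (36 subunits), 3169 for complex II (4), 5304 for complex III (9), 7258 for complex IV (11) and 7198 for complex V (15). The value for complex IV moved most between these groupings: 5 isoforms and *Cox7a2l* left the *Cox* rows, and *Ndufa4*, a subunit of complex IV despite its name, joined them. Subunits of complex IV lay within 4.92 times of each other. Those of complex V spanned 48.8 times, a range that fell to 10.4 when the shortest coding transcript was used as the length.

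**Figure D2:**
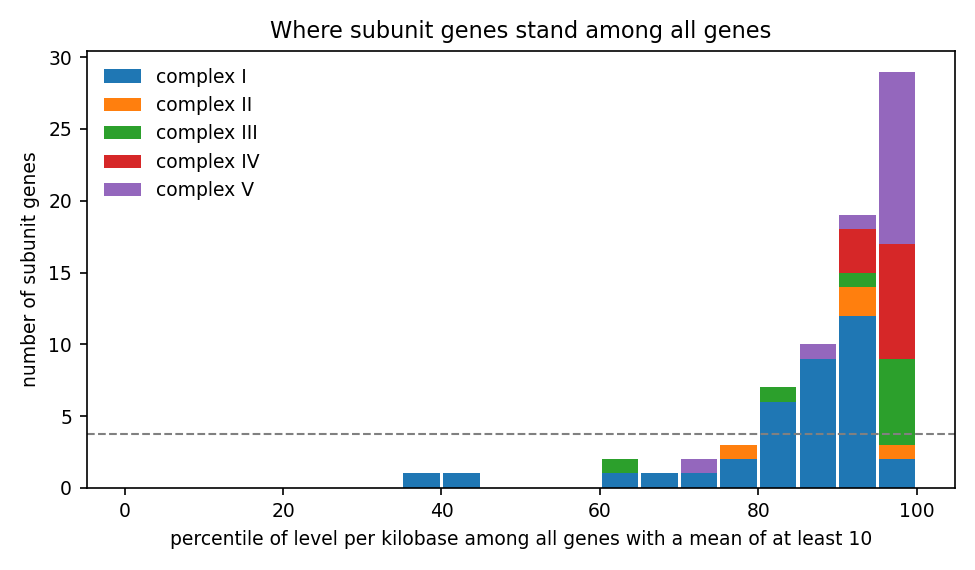
Number of subunit genes (75, stacked by complex) against the percentile of their level among 11758 genes, in steps of 5; the dashed line is the number per step if the genes were spread evenly. Of the subunits, 48 lay above the 90th percentile and *Ndufb2* (38.9) and *Ndufv3* (44.1) alone lay below the 50th.

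Complex I, the NADH dehydrogenase, has a core that carries the flavin and the iron-sulfur clusters, and many accessory subunits around it. With all exons as the length, the 7 nuclear core subunits had a median level of 1948 and the 29 accessory subunits 1921. By the shortest coding transcript the medians were 2418 for the core and 3296 for the accessory subunits, so their near equality depended on the length. With all exons as the length, the highest levels among the accessory subunits were those of *Ndufb9* with 4888 and *Ndufa8* with 4332. By the shortest coding transcript these values were the same, and *Ndufa5* (6899), *Ndufb8* (6554) and *Ndufa12* (5237) stood above them. The core subunit *Ndufs1*, which holds iron-sulfur clusters, had a mean of 8301 counts and, over exons of 2819 bases, a level of 2945. At the low end stood *Ndufb2* with 235, *Ndufv3* with 295 and *Ndufab1*, the mitochondrial acyl carrier protein, with 585. These low values depended in part on the length as well. Their annotated exons are longer than the subunits' median, at 4375, 2029 and 4387 bases, and with the shortest coding transcript their levels were 2257, 1216 and 1813. *Ndufb2* then stood at the 81.7 percentile instead of 38.9, and *Ndufv3* at 68.8 instead of 44.1. On that scale *Ndufb4* (1168) was the lowest of complex I and *Ndufv3* the next. *Ndufv3* also had the lowest mean of the complex, 599, so its low place did not rest on the length alone.

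With all exons as the length, the remaining accessory subunits of complex I ran from *Ndufc1* (810) and *Ndufa11* (964) up to *Ndufa7* (4263). By the shortest coding transcript *Ndufc1* had 3213 and *Ndufa11* 2134. *Ndufb4*, one of the membrane arm, had a level of 1168, and its transcript matched 2 other annotated genes, both pseudogenes. Among the core subunits, *Ndufs7* with 1291 and *Ndufs8* with 1461 were lowest, and *Ndufv1*, which binds the flavin and oxidizes NADH, had 1885. *Ndufv2*, its neighbour in the protein, had 1948, but by the shortest coding transcript the values were 2329 for *Ndufv1* and 3770 for *Ndufv2*.

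Complex II, the succinate dehydrogenase, is also an enzyme of the citric acid cycle. Its 4 subunits are all nuclear. *Sdhd*, a membrane anchor, had a level of 5010 and *Sdha*, the flavoprotein that binds succinate, 3509. *Sdhb*, which carries the iron-sulfur clusters, had 2829, and *Sdhc*, the other membrane anchor, 1080. The low value of *Sdhc* again went with long exons (3171 bases), and by the shortest coding transcript its level was 4204. On that scale the highest and lowest subunits of complex II lay within 1.77 times of each other.

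Complex III, the cytochrome bc1 complex, had its highest levels in *Uqcrb* (8053) and *Uqcrh* (7980), small subunits, the latter known as the hinge protein. *Uqcr10* had 6606. The core protein gene *Uqcrc1* (5306) and *Cyc1* (5304), the gene of cytochrome c1, had nearly the same level. *Uqcrc2*, the other core protein, had 4600, and *Uqcrfs1*, the Rieske iron-sulfur protein, 2712. The lowest levels were in *Uqcrq* (1308; 5898 by the shortest coding transcript) and *Uqcr11* (613). The older symbol *Uqcr* of *Uqcr11* had a row of its own with a mean of 31.2, which could not be placed on the genome. Both rows summed to 304, of which *Uqcr* took 10.3%, and that sum was still below the mean of every other subunit of the list. Other subunits were not searched for a further row under an older symbol.

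Complex IV, the cytochrome c oxidase, had high levels throughout. *Ndufa4* had 15571 and *Cox4i1*, the largest nuclear subunit, 12969. *Cox8a* had 9021, *Cox6b1* 8501, *Cox5a* 7697, *Cox6a1* 7258, *Cox7b* 7070 and *Cox7a2* 6875. *Cox6c* (4047), *Cox5b* (3470) and *Cox7c* (3165) were lowest, with *Cox7c* at the 92.3 percentile of all genes. By the shortest coding transcript *Cox6c* had 8956 and *Cox7c* 8266, above *Cox6a1* (7258), so that their low place depended on the length.

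The ATP synthase had the gene with the highest level of the 88, *Atp5b*, which encodes the catalytic beta subunit. *Atp5b* (chromosome 10, 128083273 to 128090391 in GRCm38) had a mean of 88081 normalized counts and a level of 45971 per kilobase, and ranked 20 of all rows in mean. It took 0.215% of all counts, and the 15 subunits matched by symbol took 0.523%. *Atp5mpl*, listed under an older symbol, and *Usmg5*, a small membrane subunit described below with the assembly genes, are not among the 15. *Atp5a1*, the alpha subunit, which alternates with beta in a ring of equal numbers, had a level of 14938. Its mean ranked 91 of all rows, so that *Atp5b* and *Atp5a1* together took 29.5% of the counts of the 89 rows. Of the central stalk, *Atp5c1* (gamma) had 7685, *Atp5e* (epsilon) 5385 and *Atp5d* (delta) 2445. The peripheral stalk subunits *Atp5f1* (8218), *Atp5h* (7826) and *Atp5o* (7198) were followed by *Atp5j* (3947). By the shortest coding transcript *Atp5h* had 12255 and *Atp5j* 6472, nearer to *Atp5o*. The membrane subunits *Atp5l* (7552), *Atp5j2* (6384) and *Atp5k* (5315) were of the same order. The catalytic subunit thus stood well apart from the other 14, the next being *Atp5g3* of the c ring.

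The c ring, which turns with the passing protons, is built from a single protein that is encoded by 3 genes differing in their import sequence. *Atp5g3* had a level of 17702, *Atp5g2* of 5204 and *Atp5g1* of 943, which gives *Atp5g3* 74.2% of the family's level. The share of *Atp5g1* depended on its length, since its annotated exons span 4912 bases and its shortest coding transcript 596. It was 3.95% by all exons, 22.6% by the shortest coding transcript and 21.8% of the plain normalized counts. *Atp5g3* was the highest of the family in all 3 ways, with 52.3% by the shortest coding transcript and 60.3% of the counts. The order of *Atp5g1* and *Atp5g2* turned between the counts and both levels.

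**Figure D3:**
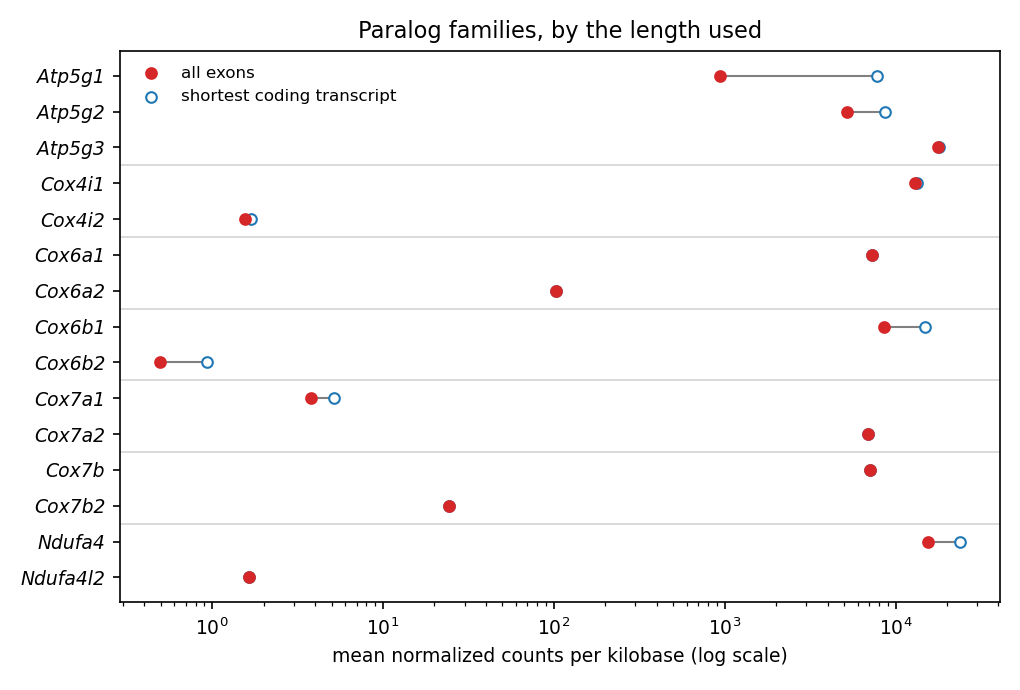
Level of the genes of 7 families of related subunits, in normalized counts per kilobase on a log scale, with the length taken from all exons (filled) or from the shortest coding transcript (open). In complex IV the common form lay far to the right of its partner in every family, while *Atp5g1* moved from 943 to 7771 with the choice of length. *Cox7a2l* is not shown.

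In the 6 families of complex IV subunits compared, a single form made up nearly all of the RNA of the forms counted as subunits. The related *Cox7a2l*, with a level of 4162 beside 6875 for *Cox7a2*, was counted as no subunit and left out of the subunit 7a family. The forms *Cox8b* and *Cox8c* of subunit 8 had no row and are not analysed here. *Cox6a2*, the heart and muscle form of subunit 6a, had a mean of 69.6, which was 1.39% of the level of its family beside *Cox6a1*. *Cox7b2*, known from testis, had a mean of 13.2 and 0.344% of the level of its family beside *Cox7b*. The other forms were so low that whole reads could be recovered from their means. For *Cox7a1*, the heart and muscle form of subunit 7a, the mean of 2.04 stood for 12 reads in all, found in 6 libraries (exact 95% Poisson interval 6.20 to 21.0 reads). *Ndufa4l2*, a hypoxia-induced relative of *Ndufa4*, had 9 reads in 5 libraries (4.12 to 17.1), and *Cox4i2*, the lung and hypoxia form of subunit 4, 7 reads in 4 libraries (2.81 to 14.4). *Cox6b2*, the testis form of subunit 6b, had 2 reads, in 2 libraries (0.242 to 7.23). Which libraries held them was not worked out by group. These intervals cover counting error only.

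The table's muscle and testis genes stood beside these isoforms as follows. Of 7 muscle genes 3 were listed: *Myh6* had 5 reads in all and *Myh7* 16, while *Tnnt2*, cardiac troponin T, had a mean of 5787. The 3 testis genes of 5 that were listed, *Prm2*, *Ddx4* and *Sycp3*, had 2, 3 and 3 reads. All 8 fibroblast markers were listed, with means from 1092 (*Thy1*) to 135160 (*Col1a2*) and a median percentile of 98.5. Within this list *Pdgfrb* (level 393), *Thy1* (581) and *Col3a1* (738) lay much nearer to the median of all genes (376). The part of other cell types in the low isoforms was not tested.

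The rows that matched by name and are no subunit were mostly lower. *Cox7a2l*, which joins complexes III and IV into supercomplexes, had a level of 4162. The 4 complex I assembly factors matched by symbol, *Ndufaf2* (881), *Ndufaf4* (746), *Ndufaf1* (634) and *Ndufaf3* (35.4), had a median of 689.7 beside 1935 for the subunits they put together. *Ndufaf5*, *Ndufaf6*, *Ndufaf7* and *Ndufaf8* were listed under older symbols and are not in this median. *Atp5s* had 171 and *Atp5sl* 63.0, at the 32.7 and 19.4 percentile. Of the 7, *Cox7a2l* was the single row in the top 10% of all genes.

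Other genes of the pathway were read from lists. Of the 13 subunits encoded in mitochondrial DNA, 1 was listed, *mt-Nd4* of complex I, with a mean of 26336 and a level of 19112, above every nuclear subunit but *Atp5b* with all exons as the length. By the shortest coding transcript *Ndufa4*, at 23757, was higher too. The libraries were poly(A)-selected, and the other 12 are not analysed here. Cytochrome c, the mobile carrier between complexes III and IV, had a mean of 8315 in its somatic form *Cycs* and of 3.75 in its testis form *Cyct*. Assembly factors stood lower than subunits. The 11 listed factors of complex IV had a median percentile of 55.9, from *Cox16* with a mean of 107 to *Lrpprc*, which stabilizes mitochondrial mRNA, with 9013. The 3 listed factors of complex III had a median percentile of 53.1 and the 2 of complex II one of 23.1. The 5 genes listed for assembly and control of the ATP synthase had a median percentile of 81.9. That value is the percentile of *Usmg5* (level 1455), which is itself a small membrane subunit rather than an assembly factor. The highest level among the 5, 4546, was that of *Atpif1*, the inhibitor that stops the enzyme from running backwards. Of 9 regulators of mitochondrial genes 8 were listed, with a median percentile of 57.8. Among them *Gabpa* had a mean of 4587, *Yy1* 3833, *Nrf1* 2792, *Tfam*, the factor of mitochondrial DNA, 2344, and the coactivators *Pprc1* and *Ppargc1b* 4700 and 153.

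The genes were spread over the genome. They lay on 18 of 19 autosomes and, with *Ndufb11*, *Ndufa1* and *Cox7b*, on the X chromosome. Chromosome 14 held none and chromosome 12 held *Atp5s* alone. Chromosome 7 held 9 rows (10.2%, beside 7.59% of all genes) and chromosome 13 held 7 (7.95%, beside 3.62%). The genes compared with all had a mean of at least 10, whereas the rows of chromosome 7 include *Cox7a1* and *Cox6b2*, which did not. Those shares are therefore not on the same footing. Of the 75 subunits, all with a mean of at least 10, 5 lay on chromosome 7 and 6 on chromosome 13. Median levels of all genes ranged from 264 to 589 per kilobase between chromosomes, and 73 of 75 subunits were above the median of their own chromosome. The exceptions were *Ndufb2* on chromosome 6 and *Ndufv3* on chromosome 17. The subunits of chromosome 13, namely *Ndufs6*, *Ndufs4*, *Sdha*, *Uqcrb*, *Uqcrfs1* and *Cox7c*, came from 4 complexes, and their median level was 2938 beside 317 for all genes there.

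Many of these genes started back to back with another gene. A protein-coding gene began on the opposite strand within 1000 bases for 32 of 88 rows (36.4%), beside 16.8% of 11416 protein-coding genes with a mean of at least 10. Some partners are mitochondrial as well: *Sdhd* lay beside *Timm8b*, of the import machinery, and *Ndufb5* and *Ndufs6* beside *Mrpl47* and *Mrpl36*, of the mitochondrial ribosome. *Atp5j* lay beside *Gabpa*, a subunit of GABP, and *Ndufa7* beside *Rps28*, of the cytosolic ribosome. Exons overlapped those of another gene in 25 rows. In 4 of these (*Ndufb9*, *Ndufb8*, *Ndufb2* and *Atp5o*) an overlapping gene lay on the same strand, so that their reads cannot be told apart there. That overlap took 29.0% of the exon bases of *Atp5o*, 28.6% of *Ndufb9*, 5.75% of *Ndufb8* and 3.31% of *Ndufb2*. Among the genes overlapping *Atp5o* is a further annotation entry with the same symbol. In the other rows the overlapping gene lay on the opposite strand, over as much as 41.7% of the exon bases of *Cox5a* and 39.0% of those of *Ndufb6*. The labels give a strand-specific kit, but whether the counting used strand is not given in the sources used here, and without it those reads cannot be told apart either.

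Pseudogenes add a further limit to single values. Transcripts of 22 rows matched 47 annotated pseudogenes over at least 100 bases with at least 95% identity. *Atp5l* had 9 such copies, with a match of up to 394 bases (72.4% of its transcript), *Atp5h* and *Cox7c* 4 each and *Uqcrb* 3. Matches to genes that are no pseudogene were found too, which brought the number to 92. Many of these were in *Ndufc1*, which matched 25 other genes over up to 130 bases, and in *Atp5g1*, which matched 19, of which 2 were pseudogenes. The median percentile was 93.5 for the 22 rows with a pseudogene copy and 90.9 for the others. Those others held all 6 isoforms known from particular tissues or conditions and every row that is no subunit except *Cox7a2l*. They also held *Ndufc1*, *Uqcr10* and *Cox5b*, which matched genes that are no pseudogene. The groups thus differ in kind of gene as well, and an effect of copies was not tested. How reads that fit a gene and its copy were counted was not given in the sources used here, so these levels are uncertain to that extent.

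Promoter sequences were compared next, in RefSeq windows of 300 bases (GRCm38.p6) that end 50 bases after the start of a gene. A window was found for 73 of 88 rows, 63 of them subunits. To show what such windows look like, the 250 bases before the start are printed for the common and the muscle form of subunit 7a, whose levels lay far apart (6875 and 3.81), and for *Atp5l*, the subunit with the most kinds of motif (3) among the 20 whose 250 bases held at most 30 bases of annotated exon. Each is written 5′ to 3′ on the strand of its gene. *Cox7a2* lies at chr9:79759854-79760103 (minus strand), *Cox7a1* at chr7:30183921-30184170 (plus strand) and *Atp5l* at chr9:44920743-44920992 (minus strand). Annotated exons overlap them by 25, 27 and 9 bases. Capitals mark the letters of a motif searched.
Cox7a2: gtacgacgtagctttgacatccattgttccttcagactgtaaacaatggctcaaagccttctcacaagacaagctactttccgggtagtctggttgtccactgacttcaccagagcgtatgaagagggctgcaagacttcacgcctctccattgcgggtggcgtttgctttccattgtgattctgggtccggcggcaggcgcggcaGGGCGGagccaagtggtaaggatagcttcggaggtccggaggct
Cox7a1: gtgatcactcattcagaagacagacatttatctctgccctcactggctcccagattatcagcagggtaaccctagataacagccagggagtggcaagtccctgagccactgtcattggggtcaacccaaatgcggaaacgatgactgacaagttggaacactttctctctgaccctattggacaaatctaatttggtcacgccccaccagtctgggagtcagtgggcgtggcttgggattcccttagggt
Atp5l: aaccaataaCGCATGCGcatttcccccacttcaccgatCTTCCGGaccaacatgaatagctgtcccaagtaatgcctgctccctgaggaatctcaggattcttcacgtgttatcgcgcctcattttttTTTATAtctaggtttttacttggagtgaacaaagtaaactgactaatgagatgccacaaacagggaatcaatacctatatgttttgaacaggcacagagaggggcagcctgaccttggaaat
In *Cox7a2* the capitals are a GC box of SP1 at position -44 from the start. *Cox7a1* held none of the motifs in these bases. Other families differed from this pair. Over their whole windows, *Cox6b2* and *Cox7b2* held the SP1 letters, and their common forms *Cox6b1* and *Cox7b* did not. The SP1 letters were in 2 of the 3 isoforms known from particular tissues or conditions that had a window. In *Atp5l* they are the NRF1 letters, read on both strands from positions -241 and -240, an ETS motif on the opposite strand at -212 and the letters of a TATA box on the opposite strand at -122.

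The letters searched were, for NRF1, a factor of nuclear genes for mitochondrial proteins, GCATGCG, a part of its motif. For the ETS family, to which GABP belongs, they were CCGGAAG, and for YY1 AAGATGG, again a part of the motif. For SP1 they were GGGCGG, and the TATA box was searched as TATAAA. Each was looked for on either strand, and these letters overlap each other in no pair of motifs shown above except NRF1 with itself. Of the 63 subunits with a window, 11 (17.5%) held the NRF1 letters, beside 7.63% of 9367 expressed genes (mean of 10 or more) and 4.01% of all 27025 genes with a window. The YY1 letters were in 11 subunits as well (17.5%, beside 8.65% and 7.28%). The ETS letters were in 16 subunits (25.4%, beside 20.9% and 9.93%). The SP1 letters were in 25 subunits (39.7%), a lower share than the 69.3% of the expressed genes and near the 38.2% of all genes. Taking the most GC-rich window of each gene, the median GC content was 59% in subunits and 62% in the expressed genes. The TATA letters were in 5 subunits (7.94%, beside 8.70% and 15.7%).

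By complex, the YY1 letters were in 7 of 32 windows of complex I, 0 of 3 of complex II, 0 of 5 of complex III, 1 of 9 of complex IV and 3 of 14 of complex V. The NRF1 letters were in 3 of 32 windows of complex I (*Ndufa8*, *Ndufa6* and *Ndufa11*), 1 of 3 of complex II, 2 of 5 of complex III, 1 of 9 of complex IV and 4 of 14 of complex V (*Atp5l*, *Atp5k*, *Atp5g2* and *Atp5j*). *Atp5j*, which held 4 of the 5 motifs over its windows, is the gene that starts back to back with *Gabpa*. These are matches of letters and were not tested for binding, and the numbers per complex are small.

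**Figure D4:**
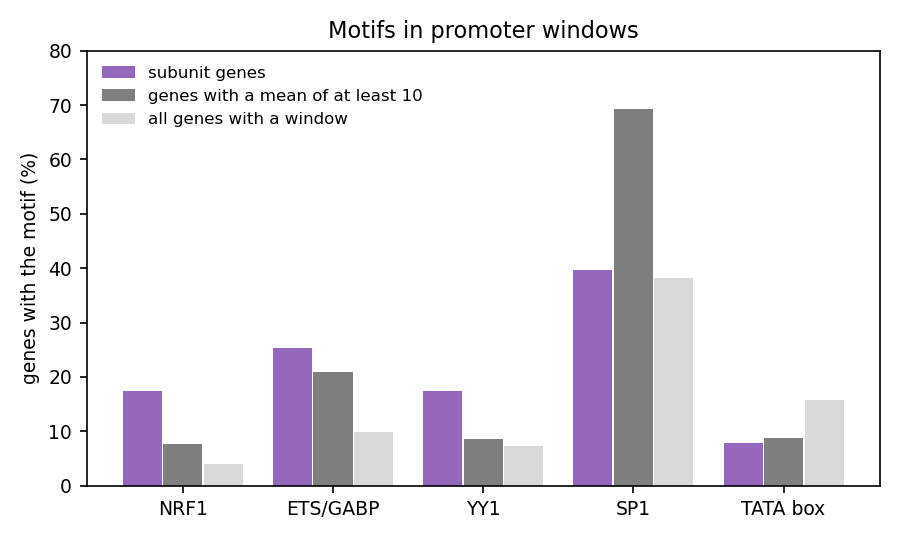
Share of genes with each motif in a promoter window of 300 bases, in percent, for 63 subunit genes, 9367 expressed genes (mean of 10 or more) and all 27025 genes with a window; bars start at 0. The subunit bar was above both others for NRF1 (17.5%), ETS/GABP (25.4%) and YY1 (17.5%), and below the middle bar for SP1 (39.7% beside 69.3%).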

How the data were processed

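Poly(A)-selected RNA of 3 *Ms4a15* OE and 3 control libraries was sequenced as paired ends. The labels give a strand-specific kit, whereas the kit guide named in the study's methods does not state strand. Per the study's methods, the alignment to mm10 was made by STAR, the counting per UCSC known gene by HTSeq-count and the comparison by DESeq2, while the submitters' processing notes name TopHat, Cufflinks, Cuffdiff, HTSeq and DESeq2. The deposited signal used here is the authors' average of size-factor-normalized counts across the 6 libraries. The same table holds the authors' own comparison (log2 fold change, its standard error, p-value, adjusted p-value and a direction), which was not used. No column of single libraries was used, so no test between groups was run and no replicate was averaged or left out.

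The members and lists were chosen with earlier results of these data known. The genes named are the 3 highest and 3 lowest of each complex, the paralog families, the *Sdh* genes, members with a mean under 10 and rows that are no subunit, except for 1 gene that is not reported here. Any other gene named was chosen after its value was seen.

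Of 19078 rows, 14676 matched a GENCODE vM21 gene (GRCm38) by symbol and 1552 by an older symbol. Lengths are the merged exons of the basic annotation. Relative depth was read from genes whose whole count was 1 read, of which each library had 149 to 242. The size factors of the 6 libraries were 0.887, 0.938, 0.946, 1.02, 1.11 and 1.14, and were not assigned to groups. Low means were split into whole reads of the 6 libraries where a single solution existed. Total counts per library were not used here. Copies were found with BLAST+ 2.17.0, and windows were matched to RefSeq by current or older symbol. Python 3.11.15, numpy 2.4.6, pandas 2.3.3, scipy 1.17.1 and matplotlib 3.10.9 were used. The exon lengths were tested on a small made-up annotation and the splitting of low means on simulated reads. The other steps were not tested in this way.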

Additional observations from a re-analysis of the deposited data

How the results depend on the processing

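The share of rows above the median of all genes was 87.5% and stayed between 87.5% and 90.9% with the longest transcript, with exons shortened by 200 bases, with the shortest coding transcript (89.8%; chosen after seeing the data) and with no minimum mean. The median level per kilobase by symbol moved with the length. With the longest transcript it was 2037 for complex I, 5576 for IV and 6825 for V. With exons shortened by 200 bases it was 2187, 3599, 6037, 4988 and 9389 for complexes I to V. With the shortest coding transcript it was 2959, 3856, 5306, 6973 and 7771. With subunits only it was 1935 for complex I, 7258 for IV and 7198 for V. Complex I had the lowest median and complex V the highest under all of these but the last, where complex IV was highest. The settings before the last all grouped the rows by symbol. With subunits only and the shortest coding transcript, the medians were 8266 for complex IV and 8218 for complex V. The first place of complex V thus went with the grouping by symbol. The planned edgeR test between *Ms4a15* OE and control, with DESeq2, no filter, a replicate block or a replicate left out as alternatives, was not run, since the only column used is a mean of all 6 libraries. No paired analysis was possible because the only column used carries no replicate number. For the same reason no spread between libraries bounds any level, and levels near each other cannot be ranked beyond counting error.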
